A study of Mus musculus with 38 samples.

Results

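The genes described here are 48 genes of the G2 phase and of mitosis, taken as a list of named cell division genes. All 48 were found in the bulk RNA-seq table (48 of 23475 genes), in the single-cell SCRB-seq tables (48 of 23481) and in the single-cell SMART-seq2 tables (48 of 22811). The cells were E14 mESCs, a mouse embryonic stem cell line, kept feeder free in 2i medium plus LIF (2i/L), which contains the MEK inhibitor PD0325901, the GSK3 inhibitor CHIR99021 and the cytokine LIF. They were differentiated in N2B27 medium with 0.25 µM retinoic acid (RA) for up to 96 h, where ectoderm-like cells and extraembryonic endoderm-like (XEN) cells appear. Bulk libraries were made from whole cultures at 0, 6, 12, 24, 36, 48, 60, 72, 84 and 96 h, from a second mESC library, and from cells sorted by the surface proteins CD24 and PDGFRA. The sorted groups were ectoderm-like cells at 96 h (PDGFRA-, CD24+, 2 libraries), XEN cells at 96 h (PDGFRA+, CD24-, 2 libraries), PDGFRA- cells in CD24 quartiles Q1 to Q4 at 48 h, PDGFRA- cells in CD24 terciles T1 to T3 at 72 h, and PDGFRA+ CD24- cells at 72 h. An ectoderm-like culture after 5 passages and a XEN culture after 3 weeks, both in N2B27 medium with EGF and FGF2, gave 1 library each. The ectoderm-like culture was dissociated and replated every few days, whereas the XEN culture was carried as floating aggregates that were not dissociated. SCRB-seq covered 0 to 96 h with a 384-well plate per time point, and SMART-seq2 covered 0, 12, 24 and 48 h. All groups are of 1 cell line.

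Entry into mitosis is driven by the kinase CDK1 bound to a B-type cyclin, which the phosphatase CDC25 activates. The chromosomes are then compacted by condensin and topoisomerase II, captured by spindle microtubules at the kinetochores under the watch of the Aurora kinases and the spindle checkpoint, and separated once the ubiquitin ligase APC/C, with CDC20, destroys cyclin B. The transcripts of these genes accumulate from S phase to G2, because the MuvB complex binds their promoters and represses them in resting and G1 cells, and activates them later with B-MYB and FOXM1. MuvB recognises the short cell cycle homology region (CHR), and the factor NF-Y recognises CCAAT boxes a little upstream. Pluripotent mouse cells cycle fast, with a short G1 phase.

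The 48 genes were ordered by role: 7 of mitotic entry (Cdk1, Ccnb1, Ccnb2, Cdc25c, Cks1b, Cks2, Cdca3), 9 of kinases, checkpoint, chromosomal passenger complex and APC/C (Aurka, Aurkb, Birc5, Bub1, Cdc20, Cdca8, Nek2, Ttk, Ube2c), 6 of kinetochore and centromere (Cenpa, Cenpe, Cenpf, Hjurp, Ndc80, Nuf2), 12 of the spindle (among them Nusap1, Tpx2, Kif11, Tubb4b, Ckap2 and Psrc1), 4 of cytokinesis (Anln, Ect2, Kif20b, Kif23), 7 of chromosome structure (Anp32e, Cdca2, Hmgb2, Mki67, Ncapd2, Smc4, Top2a) and 3 of nuclear envelope and transport (Lbr, Rangap1, Tmpo). As context served lists of 74 further mitotic genes and 46 S phase genes.

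The promoter windows of the members shared short letters that the choice of the list did not use. Of the 48 genes, 42 matched the RefSeq promoter table (build GRCm38.p6, 250 bases before to 50 bases after the start). A CHR, read as TTTGAA or TTCGAA on either strand, was in 32 of 42 windows (76.2%), against 19.4% of the windows of all 27025 genes. CCAAT, on either strand, was in 33 of 42 (78.6%) against 37.9% of all, and both were in 27 of 42 (64.3%) against 7.7% of all. The CHR letters were in 30 of 55 windows of the other mitotic genes and in 6 of 34 windows of the S phase genes, while CCAAT was in 23 of those 34. Of the 44 CHR matches in the members, 26 lay between 60 bases before and 30 bases after the start. Of the 10 members without a CHR in this window, 4 (Nusap1, Birc5, Nuf2 and Tacc3) also lacked CCAAT. A match is a run of letters and was not tested as a binding site.

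The 6 windows below are those of the genes on which the later results turn. Ube2c (chr2:164769679-164769978 on the plus strand), Ccnb1 (chr13:100786437-100786736 on the minus strand) and Nusap1 (chr2:119618048-119618347 on the plus strand) followed the other members most closely from cell to cell in SMART-seq2, Tmpo (chr10:91171570-91171869 on the minus strand) followed them least, and Ckap2 (chr8:22185770-22186069 on the minus strand) and Psrc1 (chr3:108383554-108383853 on the plus strand) differed most between the sorted lineages. Capitals mark CHR and CCAAT letters on either strand (TTCAAA and ATTGG are the reverse complements of TTTGAA and CCAAT), and the last 50 bases follow the start.
Ube2c: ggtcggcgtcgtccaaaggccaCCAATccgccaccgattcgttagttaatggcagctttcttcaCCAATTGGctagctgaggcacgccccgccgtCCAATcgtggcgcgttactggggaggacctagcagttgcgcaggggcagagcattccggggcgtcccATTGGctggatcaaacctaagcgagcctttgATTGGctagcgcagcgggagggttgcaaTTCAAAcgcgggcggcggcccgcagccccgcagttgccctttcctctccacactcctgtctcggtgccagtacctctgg
Ccnb1: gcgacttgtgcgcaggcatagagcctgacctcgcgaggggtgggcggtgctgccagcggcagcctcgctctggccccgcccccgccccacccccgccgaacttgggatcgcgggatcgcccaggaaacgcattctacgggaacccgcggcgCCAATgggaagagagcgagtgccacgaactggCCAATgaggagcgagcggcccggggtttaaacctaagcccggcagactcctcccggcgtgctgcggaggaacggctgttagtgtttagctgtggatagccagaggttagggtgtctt
Nusap1: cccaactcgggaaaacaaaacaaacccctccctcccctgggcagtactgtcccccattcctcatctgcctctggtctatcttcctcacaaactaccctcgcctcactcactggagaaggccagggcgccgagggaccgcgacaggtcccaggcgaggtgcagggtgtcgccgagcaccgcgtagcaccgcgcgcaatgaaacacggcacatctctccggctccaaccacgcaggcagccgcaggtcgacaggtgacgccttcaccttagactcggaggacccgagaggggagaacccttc
Tmpo: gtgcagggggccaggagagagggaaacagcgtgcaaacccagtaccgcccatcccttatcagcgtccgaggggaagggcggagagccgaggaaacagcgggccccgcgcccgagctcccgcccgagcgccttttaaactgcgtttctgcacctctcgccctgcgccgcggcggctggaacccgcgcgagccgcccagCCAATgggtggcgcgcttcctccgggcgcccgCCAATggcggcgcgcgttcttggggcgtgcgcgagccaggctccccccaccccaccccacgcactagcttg
Ckap2: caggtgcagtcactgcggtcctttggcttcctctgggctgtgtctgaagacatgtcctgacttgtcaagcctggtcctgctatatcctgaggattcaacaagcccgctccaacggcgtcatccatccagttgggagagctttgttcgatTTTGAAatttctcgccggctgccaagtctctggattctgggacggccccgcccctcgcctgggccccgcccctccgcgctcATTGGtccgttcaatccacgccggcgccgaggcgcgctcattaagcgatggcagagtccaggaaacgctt
Psrc1: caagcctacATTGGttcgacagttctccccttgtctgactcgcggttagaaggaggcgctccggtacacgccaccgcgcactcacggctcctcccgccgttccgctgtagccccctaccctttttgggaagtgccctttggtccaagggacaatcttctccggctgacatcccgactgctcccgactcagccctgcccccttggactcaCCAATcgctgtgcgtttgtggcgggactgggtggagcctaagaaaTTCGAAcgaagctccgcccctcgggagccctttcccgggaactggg
Ube2c and Ckap2 held both kinds of letters, Psrc1 held TTCGAA with CCAAT, Ccnb1 and Tmpo held CCAAT alone, and Nusap1 held neither.

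The bulk libraries held 1063809 to 2459424 unique molecular identifiers (UMIs, each standing for 1 captured transcript), and the study's methods call the libraries of mESCs and of both sorted lineages biological replicates, without saying how they were separated. The p-values below rest on the spread between the 2 libraries of each group, shared over mESCs and both sorted lineages in the same fit. The sorted cells carried the markers of their labels: all 11 XEN markers were higher and all 11 ectoderm markers lower in both sorted XEN libraries than in both sorted ectoderm-like libraries. Pluripotency markers made up 0.627% and 0.452% of UMIs in sorted XEN cells and 0.717% in PDGFRA+ cells at 72 h, against 0.079% and 0.043% in sorted ectoderm-like cells and 0.131% in T3 cells, and their part in the XEN comparisons below was not tested. In SCRB-seq, 2448 of 3456 wells had more than 2000 UMIs and were kept. The same 384 well names stand on each of the 9 plates, and 8 well positions were among the 10 deepest on at least 5 plates and held 14.8% to 26.2% of the UMIs of a plate. These are called recurrent wells. The sources used here do not say what they hold, and they are counted among the cells unless stated otherwise. Their median was 14059 to 55768 UMIs per plate, against 3459 to 5037 in the other kept wells.

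During 96 h of RA the members kept a nearly level share of the bulk transcriptome. The summed share was 0.964% and 0.788% of UMIs in the first and second mESC library, 1.13% at 6 h, 1.05% at 12 h, 1.07% at 24 h, 0.940% at 36 h, 1.05% at 48 h, 1.07% at 60 h, 1.03% at 72 h, 0.936% at 84 h and 0.909% at 96 h. The first mESC library exceeded the second by a factor of 1.22 (95% counting interval 1.20 to 1.25), and the ratio of 96 h to 0 h, 0.943 (0.924 to 0.961), lay closer to 1 than this difference between libraries of the same condition. Against the second mESC library the ratio was 1.15, so its direction depended on which mESC library stood for 0 h. The ratio of 6 h to the first mESC library was 1.17 (1.15 to 1.19), smaller than the difference between the mESC libraries. The share at 6 h, 1.13%, was however above both mESC libraries (0.964% and 0.788%), so its direction did not depend on which stood for 0 h. In bulk, fewer dividing cells and less RNA of these genes per dividing cell cannot be told apart. All these intervals cover counting error only.

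**Figure D1:**
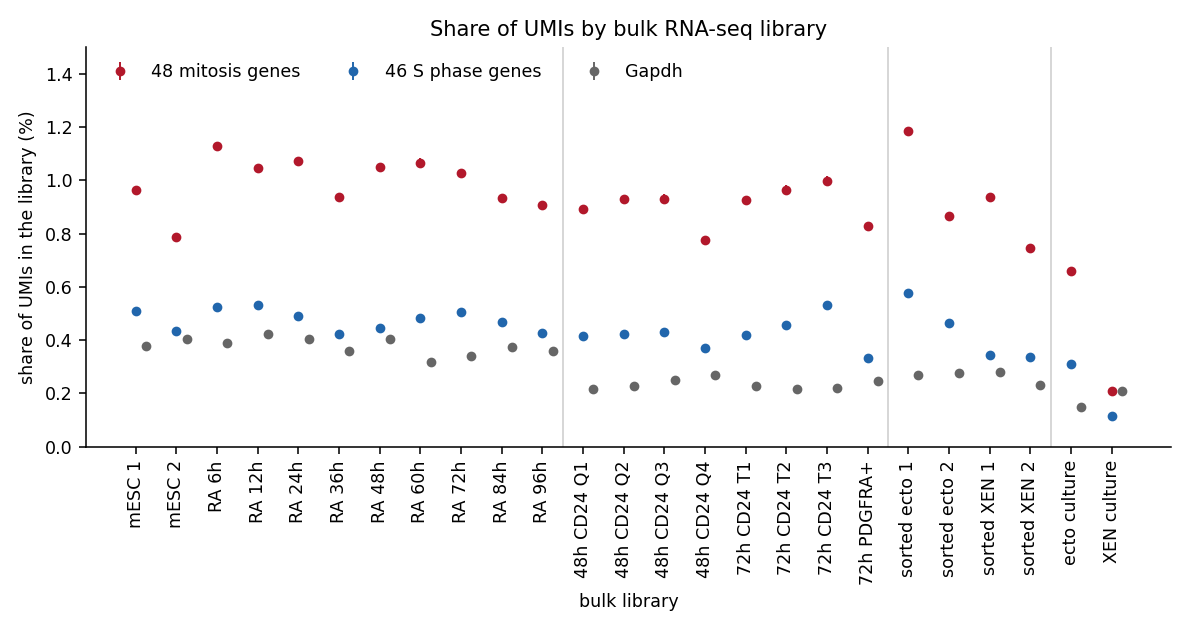
Share of UMIs (%, y axis) held by the 48 mitosis genes (red), 46 S phase genes (blue) and Gapdh (grey, shifted to the right) in each of the 25 bulk libraries (x axis); bars are 95% counting intervals, mostly smaller than the points. The mitosis genes stay between 0.745% and 1.19% in all libraries other than the 2 long-term cultures, where they are at 0.659% and 0.210%.

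Single members moved more than the sum. Hmgb2, a chromatin protein of dividing cells, held 34.99% of the members' UMIs in the time course and went from 3194 CPM (UMIs of the gene scaled to a library total of 1000000) in the first mESC library and 2533 in the second to 4479 at 6 h, between 3381 and 4025 from 12 h to 72 h, 3031 at 84 h and 2503 at 96 h. Without it the 96 h to 0 h ratio of the sum was 1.02. Cks2 and Cks1b, small CDK-binding proteins, went opposite ways: Cks2 was at 769 and 703 CPM in mESCs and 612 at 96 h, and Cks1b at 305 and 264 CPM in mESCs, 411 at 24 h, 478 at 48 h and 497 at 96 h. Cks1b was above both mESC libraries at every time point from 6 h on.

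Tubb4b, a beta tubulin, had the lowest ratio of 96 h to 0 h among members with enough UMIs and went from 553 and 312 CPM in mESCs over 571 at 12 h to 289 at 48 h and 329 at 96 h. The value of the second mESC library was, however, already below that at 96 h. With the first mESC library as 0 h, Ccnb1 (cyclin B1) stayed between 330 and 438 CPM, Birc5 (survivin, of the chromosomal passenger complex) between 302 and 360, and Cdk1 between 212 and 294. The second mESC library was below each of these ranges, at 313, 212 and 165 CPM. The range of Birc5 over the 10 time points, 1.19-fold from the lowest to the highest library, was the smallest of all 48. Top2a (topoisomerase II alpha) was between 241 and 436 CPM with the lowest value at 36 h, Anp32e (an H2A.Z chaperone) between 202 and 320, and Cenpf (a large kinetochore protein) between 264 and 467 with the highest value at 24 h.

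The proliferation marker Mki67, which coats mitotic chromosomes, had the highest ratio. It was at 27.1 and 34.8 CPM in the mESC libraries, at 43.03, 45.8, 44.8 and 32.7 from 6 h to 36 h, at 78.1 at 48 h and at 97.9 at 96 h. Every time course library from 48 h on was above every earlier one. Tmpo, a lamin-binding protein of the inner nuclear envelope, went from 41.997 and 46.1 CPM in mESCs to 80.1 at 48 h and 75.9 at 96 h, and Kif23, the motor of the midbody, from 68.2 and 40.05 CPM to 117 at 96 h. Rangap1 (77.9 and 34.8 CPM in mESCs, 49.2 at 96 h) and Gtse1 (103 and 72.3 CPM, 67.1 at 96 h) had the lowest ratios after Tubb4b, and for Rangap1 the 96 h value lay between both mESC libraries. Of 47 members with at least 40 UMIs in the pair, 1 was past 2-fold higher at 96 h than at 0 h (Mki67) and 0 were past 2-fold lower, where 22.4% and 7.85% of all genes tested were. The first mESC library had 2 of 47 members past 2-fold above the second (Cdca3 and Rangap1) and 0 below, where 4.36% and 5.03% of all genes were. The members' median log2 ratio of 96 h to 0 h was 0.15, beside 0.29 over all genes.

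Of the pairs compared, the members' share differed most between the long-term cultures. The members held 0.659% of UMIs in the ectoderm-like culture and 0.210% in the XEN culture, a ratio of 3.14 (95% counting interval 3.02 to 3.27). Of 44 members with at least 40 UMIs, 34 were past 2-fold higher in the ectoderm-like culture, where 21.7% of all genes were, and 0 were past 2-fold lower, where 19.4% of all genes were. The members' median log2 ratio was 1.81, beside 0.15 over all genes. Of the other mitotic genes 43 of 49, and of the S phase genes 30 of 41, were past 2-fold higher, and Gapdh was at 0.149% and 0.210% of UMIs. XEN markers held 0.224% of UMIs in the ectoderm-like culture and 1.01% in the XEN culture, but ectoderm markers held 0.165% and 0.155%, so that the ectoderm list did not set the cultures apart. Their part in the difference was not tested. Each culture is 1 library, so the difference has no replicate check, and passage, dissociation and lineage cannot be told apart in it.

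All 7 genes of mitotic entry were past 2-fold. Cdk1 was at 271 CPM in the ectoderm-like culture and 42.1 in the XEN culture, 6.44-fold apart (4.93 to 8.54). Ccnb1 was at 251 and 38.6 CPM, 6.49-fold apart (4.91 to 8.72), and Cks2 at 790.2 and 172, 4.6-fold apart (4.02 to 5.28). The Cdk1 level of the ectoderm-like culture was close to that of the sorted ectoderm-like cells (252 and 244 CPM), whereas in the XEN culture it was below both sorted XEN libraries (261 and 318 CPM). Other members differed in this: in the ectoderm-like culture Ccnb1 was below both sorted ectoderm-like libraries (381 and 342 CPM) and Cks2 above both (676 and 662 CPM). The summed share of the members was lower in either culture than in every sorted library.

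Among kinases and checkpoint genes all 7 with enough UMIs were past 2-fold. Aurkb, the kinase of the passenger complex, had 74 UMIs in the ectoderm-like culture and 5 in the XEN culture (11.5-fold, 4.71 to 36.4), and Aurka, which builds the spindle poles, 198 and 17 (9.04-fold, 5.50 to 15.8). The checkpoint kinase Ttk had 29 and 2 UMIs, a ratio of 11.3 with an interval of 2.85 to 97.3. Ndc80, the microtubule-binding part of the kinetochore, was at 63.7 and 6.90 CPM (9.23-fold, 4.85 to 19.8). These levels in the ectoderm-like culture were close to those in mESCs for Ndc80 (59.9 and 63.99 CPM) and below them for Aurka (106 CPM against 174 and 125).

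Spindle and envelope genes were less uniform. Ckap2l, a spindle pole protein, was at 85.7 and 9.66 CPM (8.87-fold, 5.13 to 16.6), but Tubb4b was at 222 CPM in the ectoderm-like culture and 319 in the XEN culture, and its ratio of 0.696 (0.608 to 0.796) made it the only 1 of the 48 members whose interval lay below 1. For 43 members the interval lay above 1. Of all 14881 genes with a UMI in either culture, the interval was above 1 for 22.3% and below 1 for 20.0%. These genes had no higher floor of UMIs, and sparse genes have wider intervals. None of the 3 envelope and transport genes was past 2-fold (Tmpo 1.959, Lbr 1.35, Rangap1 0.799). Among members with at least 40 UMIs, Tubb4b, Rangap1 and Lbr had the smallest ratios. These are known outside mitosis too, in microtubules, in nuclear transport and in the nuclear envelope of cells at any stage. The mitotic genes Psrc1 (10 and 10 UMIs) and Hjurp (6 and 6 UMIs) also had ratios below 1, from few UMIs. Whether use outside mitosis had a part in the ratios was not tested.

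**Figure D2:**
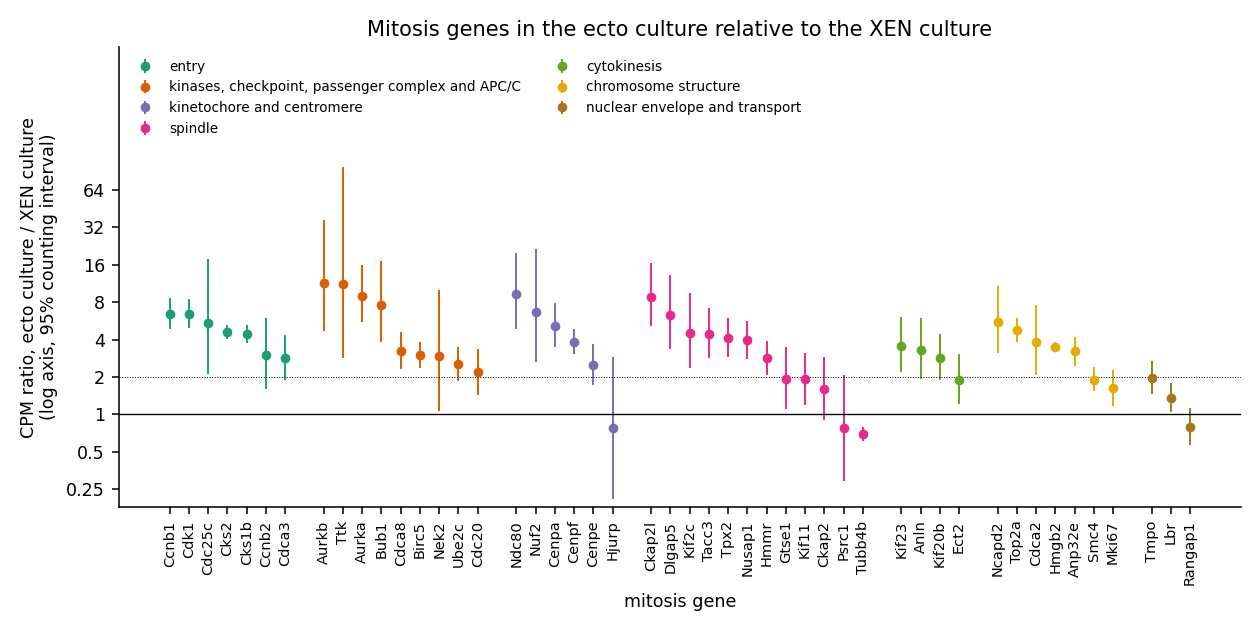
Ratio of CPM in the ectoderm-like culture to that in the XEN culture (log axis) for each of the 48 mitosis genes (x axis), coloured by role; bars are 95% counting intervals, the solid line marks equal levels and the dotted line 2-fold. The intervals of 43 genes lie above 1, where those of 22.3% of all genes with a UMI in either culture do. That of Tubb4b lies below, where 20.0% of all genes do.

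Against mESCs, few members passed the test in either sorted lineage. In sorted ectoderm-like cells 0 of 48 were higher and 1 was lower (edgeR quasi-likelihood test, adjusted p under 0.05), where 9.85% and 9.28% of all genes were. At an unadjusted p under 0.05 there were 1 higher and 4 lower, and DESeq2 called 0 higher and 1 lower. Tubb4b, the 1 that fell, was at 553 and 312 CPM in mESCs and at 289.6 and 290.1 in sorted ectoderm-like cells. Its groups did not overlap, but the same libraries gave the call. Its log2 fold change was -0.88 ± 0.28 (SE, n = 2 and 2, edgeR adjusted p = 0.0484). Leaving out any 1 of the 4 libraries other than the second mESC library ended this call.

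In sorted XEN cells 1 member was higher and 5 were lower than in mESCs, where 12.3% and 10.5% of all genes were. Cks1b, the member that rose, was at 305 and 264 CPM in mESCs and 522 and 572 in sorted XEN cells (log2 fold change 0.75 ± 0.25, SE, edgeR adjusted p = 0.04996). The members that fell were the spindle genes Ckap2 (-1.42), Psrc1 (-1.20), Gtse1 (-1.01) and Nusap1 (-0.81) and the cytokinesis gene Ect2 (-0.94), with adjusted p from 0.0165 to 0.0422. Ckap2 was at 51.6 and 30.04 CPM in mESCs and 16.3 and 19.1 in sorted XEN cells, Psrc1 at 26.2 and 30.5 against 14.2 and 14.6, and Gtse1 at 103 and 72.3 against 51.8 and 48.3. Nusap1, which bundles spindle microtubules, was at 146 and 153 CPM against 109 and 88.4, and Ect2 at 93.2 and 83.1 against 50.3 and 55.6. In all 5 both mESC libraries lay above both XEN libraries, which adds no support, as the same libraries gave the calls. The median log2 fold change of the 48 was -0.19 in sorted ectoderm-like cells and -0.32 in sorted XEN cells, beside 0.05 and -0.06 over all genes. TMM, the scaling of the fit, shifted the log2 values against library totals by -0.31 (ectoderm-like against mESC), -0.21 (XEN against mESC) and 0.11 (XEN against ectoderm-like). With library totals the members' medians were 0.12 and -0.09, beside 0.36 and 0.15 over all genes, and the calls were 2 higher (Anp32e and Cks1b) and 0 lower in ectoderm-like cells, and 2 higher (Cks1b and Kif23) and 1 lower (Ckap2) in XEN cells. The count of 6 was 2 without the first mESC library (Kif23 and Psrc1), 2 without the second (Ckap2 and Gtse1), 1 without the first XEN library (Cenpe) and 2 without the second (Ckap2 and Kif23).

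Among the 70 other mitotic genes tested, 5 were higher and 2 lower than in mESCs in either lineage. The 2 that fell in both were Mybl2 and Cenpm. Mybl2, which encodes the B-MYB partner of MuvB, was at 68.2 and 57.03 CPM in mESCs, at 7.78 and 7.75 in sorted ectoderm-like cells and at 33.01 and 11.8 in sorted XEN cells. Its log2 fold change against mESCs was -3.31 ± 0.43 in ectoderm-like cells and -1.66 ± 0.39 in XEN cells (edgeR adjusted p = 0.000359 and 0.00900). The centromere gene Cenpm fell by 2.64 and 3.45 on the log2 scale. In ectoderm-like cells G2e3, Ska2, Fam64a, Depdc1a and Cbx5 rose by 0.96 to 1.61.

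There were 3 members that differed between the lineages themselves. Ckap2, a microtubule protein of the spindle poles, was at 76.7 and 60.1 CPM in sorted ectoderm-like cells and 16.3 and 19.1 in sorted XEN cells. The mESC libraries, at 51.6 and 30.04 CPM, lay between. The log2 difference of XEN to ectoderm-like cells was -1.86 ± 0.37 (edgeR adjusted p = 0.00804). Psrc1, a spindle protein that binds microtubule ends, was at 46.1 and 38.1 CPM against 14.2 and 14.6 (-1.45 ± 0.34, adjusted p = 0.0169). Anp32e was at 393 and 340 CPM against 195 and 180.5 (-0.86 ± 0.24, adjusted p = 0.0399). In none of the 3 did the groups overlap, but the test that chose them used the same libraries, so this adds no support.

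Thus 0 members were higher and 3 lower in sorted XEN than in sorted ectoderm-like cells, where 6.98% and 5.81% of all genes were (2 higher and 5 lower at an unadjusted p under 0.05, and 0 higher and 2 lower with DESeq2). The median over the 48 was -0.09, beside -0.07 over all genes. Without the first ectoderm-like library or without the first XEN library no member passed, and without the second library of either group Ckap2 alone passed. Among the other mitotic genes Mybl2 (1.65) and Zwint (1.39) were higher and Cdc25b (-1.96) and Cbx5 (-1.08) lower in XEN cells. Of the S phase genes 0 were higher and 6 of 46 lower (median -0.55).

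The sorted cells of 72 h and the single cells of 96 h, which are separate libraries, were read for the same genes. At 72 h the members held 0.830% of UMIs in PDGFRA+ cells and 0.999% in the T3 cells with the highest CD24, a ratio of 0.831 (0.810 to 0.852), beside 0.627 for the S phase genes and 0.675 for the other mitotic genes. The sum was compared with T3 only. Within PDGFRA- cells the members' median ratio of T3 to T1 was 1.16, so 0.831 does not stand for PDGFRA- cells in general. Of 46 members with enough UMIs, 2 were past 2-fold higher in PDGFRA+ cells (Cdca3 and Kif23) and 5 past 2-fold lower (Ckap2, Ect2, Ncapd2, Nuf2 and Nusap1), where 10.7% and 10.8% of all genes were. Ckap2 was at 15.4 CPM against 62.2, and across T1 to T3 at 47.4, 53.8 and 62.2. Psrc1 was at 19.8 CPM in PDGFRA+ cells and at 17.9, 37.1 and 36.8 in T1 to T3, so that PDGFRA+ cells lay above T1 and below T2 and T3. Anp32e was at 184 CPM against 208, 250.5 and 301.

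In SCRB-seq at 96 h the cells were split into 2 clusters by k-means on variable genes, of which none was a member. Cluster 1 had 63 cells with 19909 CPM of summed XEN markers and 1108 of ectoderm markers, and cluster 2 had 74 cells with 7828 and 2639. The 10 leading genes of cluster 1 by fold held no XEN marker and included Dppa5a, a gene of pluripotent cells, so the clusters are called by number. The members' share of UMIs in cluster 1 over cluster 2 was 0.903 (0.856 to 0.952), it was 0.896 (0.846 to 0.950) without the recurrent wells, and a split by summed markers instead, into 116 and 21 cells, gave 1.01. Without the recurrent wells (62 and 67 cells), 3 of 34 members were past 2-fold higher in cluster 1 (Cdk1, Ccnb1 and Anln) and 4 past 2-fold lower (Nusap1, Tmpo, Anp32e and Psrc1), where 9.28% and 7.42% of all genes were. With all wells there were 2 of 37 higher (Cdk1 and Anln) and 5 lower (the same 4 and Aurkb), where 5.19% and 7.63% of all genes were. Without the recurrent wells, Anp32e had 37 UMIs in cluster 1 and 79 in cluster 2 (ratio 0.441, 0.290 to 0.660), Psrc1 16 and 39 (0.386, 0.202 to 0.707), and Ckap2 9 and 22 (0.385, 0.156 to 0.871).

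In all 3 comparisons 21 of 48 members were lower and 8 higher in sorted XEN cells, PDGFRA+ cells and cluster 1, where 33.4% and 21.1% of all genes were. With both counting intervals below 1 there were 8 lower members, where 5.8% of all genes were, and they were Hmgb2, Nusap1, Cenpf, Ckap2, Anp32e, Ect2, Lbr and Psrc1. Sparse genes have wider intervals, and these 8538 genes were not matched to the members by UMIs, so the shares are not like baselines. Tubb4b was the 1 member higher with both intervals above 1, where 5.08% of all genes were, at 388 and 356 CPM in sorted XEN cells against 289.6 and 290.1 in sorted ectoderm-like cells, 1.63-fold at 72 h and 1.70-fold between the clusters. The sorted comparison alone did not pass for it (log2 0.46 ± 0.28, edgeR adjusted p = 0.323). Entry genes had a ratio of 0.966 at 72 h (0.917 to 1.02) and of 1.45 (1.21 to 1.75) between the clusters, and chromosome structure genes were lower in both (0.644 and 0.829).

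**Figure D3:**
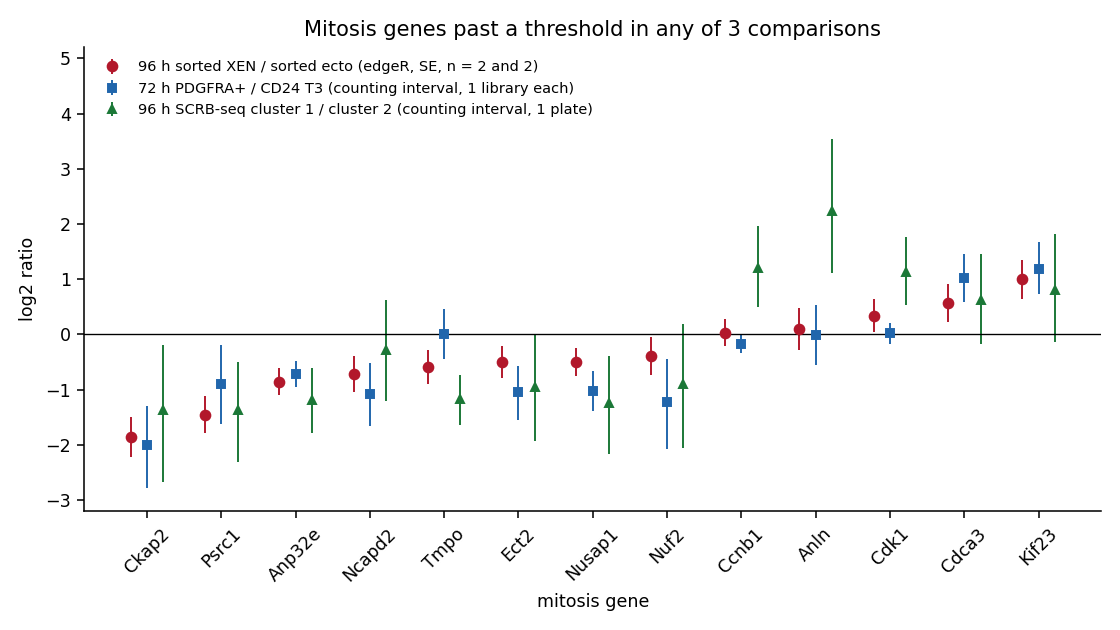
Log2 ratio (y axis) of sorted XEN to sorted ectoderm-like cells at 96 h (circles, SE), of PDGFRA+ to T3 cells at 72 h (squares, 95% counting interval) and of SCRB-seq cluster 1 to cluster 2 at 96 h (triangles, 95% counting interval) for the 13 mitosis genes past a threshold in any of these. Ckap2, Psrc1, Anp32e, Nusap1, Nuf2, Ect2 and Ncapd2 lie below 0 in all of them, Kif23, Cdca3 and Cdk1 lie above 0, and Ccnb1, Anln and Tmpo differ in direction.

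At 48 h the fraction with the highest CD24 had the lowest share. The members held 0.891%, 0.931%, 0.930% and 0.775% of UMIs in Q1 to Q4, and Q4 over Q1 was 0.870 (0.849 to 0.892). Of 46 members 0 were past 2-fold higher and 3 past 2-fold lower in Q4, where 3.02% and 3.0% of all genes were. They were Ect2, an activator of the contractile ring (111, 115, 110 and 52.4 CPM in Q1 to Q4), Anln, a scaffold of that ring (34.8, 48.6, 52.6 and 17.05), and the spindle gene Dlgap5 (39.5, 32.8, 30.1 and 18.3). Hmgb2 was at 3247 CPM in Q1 and 2463 in Q4. Without it the ratio of Q4 to Q1 was 0.934.

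Members with long transcripts differed between libraries of the same sorted group. In the second library of each sorted lineage, Mki67 was at 21.97 CPM against 111 in the first (ectoderm-like) and at 8.20 against 84.3 (XEN), and the kinetochore motor Cenpe at 32.95 against 113 and at 10.0 against 130. In the mESC libraries neither gene showed this (Mki67 27.1 and 34.8, Cenpe 66.5 and 91.4 CPM). Of 5 members whose longest coding transcript has 5000 bases or more (Cenpe, Cenpf, Kif20b, Mki67 and Top2a), all 5 were lower in the second library, with a median log2 ratio of -1.21 in ectoderm-like and -1.40 in XEN cells. The 12 members under 2000 bases had medians of -0.09 and -0.03. Over all genes of 5000 bases or more the medians were -0.35 and -0.52, and between the mESC libraries they were 0.09 over all such genes and -0.01 over the 5 members.

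The CD24 fractions of 48 h and 72 h stood below the whole cultures of the same time in 4 of these 5 members, with medians over the 5 of -0.94 and -0.93. Over all genes of that length the medians were -0.54 and -0.35, and over the 12 members under 2000 bases they were -0.20 and -0.09. Mki67 was at 6.95 to 15.98 CPM in Q1 to Q4 and 78.1 in the whole culture at 48 h. Cenpf was the exception, at 465 to 646 CPM in Q1 to Q4 and 403 in the whole culture. The first sorted libraries had 9 of 47 (ectoderm-like, 5.93% of all genes) and 7 of 46 members (XEN, 9.2% of all genes) past 2-fold above the second. The RNA quality of these libraries was not measured here, and its part was not tested. The time course values of Mki67 are from whole-culture libraries.

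In single cells by SCRB-seq the members' share was lowest at 0 h, as were those of the S phase genes and the other mitotic genes. The mean over cells was 0.611% ± 0.300 (SD, 282 cells) at 0 h, 0.833% ± 0.224 at 6 h (335 cells), 0.860% ± 0.249 at 24 h (290 cells), 0.798% ± 0.240 at 48 h (277 cells), 0.819% ± 0.280 at 72 h (235 cells) and 0.763% ± 0.303 at 96 h (137 cells). Summed over cells, the members held 0.654% at 0 h and 0.893% at 6 h. The S phase genes held 0.396% and 0.527%, and the other mitotic genes 0.479% and 0.577%. The members' summed ratio of 96 h to 0 h was 1.19 (1.15 to 1.23), and 1.21 without the recurrent wells. The bulk ratio of the same times was 0.943 with the first mESC library as 0 h and 1.15 with the second. Each time point is 1 plate, and SD here is among cells of that plate. Cells were sorted onto the plates by DNA staining with Hoechst, and the part of that gate was not tested.

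Without the recurrent wells, 6 of 47 members were past 2-fold higher (Cdk1, Ube2c, Aurkb, Tubb4b, Cdc20 and Ttk) and 0 past 2-fold lower at 6 h than at 0 h, where 8.81% and 15.2% of all genes were. With all wells, Ccnb2 and Nek2 were past it too (8 of 48, where 10.7% of all genes were). Ube2c, the ubiquitin-conjugating enzyme of the APC/C, had a mean of 60.3 CPM over cells at 0 h and 178.5 at 6 h, Cdc20 87.1 and 234.5, and Tubb4b 194 and 589.5. In bulk, Tubb4b was at 553 and 312 CPM in mESCs and 519 at 6 h. Over the 48 members, the bulk ratios of 6 h to the first mESC library ran from 0.672 to 1.65, short of 2-fold. In SMART-seq2 the mean RPKM, scaled as described below, of Cdc20 was 303 at 0 h and 560 at 12 h, and that of Tubb4b 701 and 743. From 0 h to 96 h, without the recurrent wells, 7 of 47 members were past 2-fold higher (Cdk1, Birc5, Tmpo, Aurkb, Kif23, Anp32e and Lbr) and 0 lower, where 19.1% and 15.4% of all genes were, and with all wells Cdc25c was past it too (8 of 48, where 20.3% of all genes were). Tmpo went from 121 to 320 CPM and Kif23 from 25.98 to 67.2 CPM in the mean over cells, and both were above their 0 h CPM in bulk too.

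The spread between cells was widest at 0 h and at 96 h. With each cell thinned to 2000 UMIs, the members summed to 12.1 UMIs per cell at 0 h with a Fano factor (variance over mean, 1 for counting noise alone) of 3.12. It was 1.81 at 6 h, 1.74 at 12 h, 1.89 at 24 h, 1.59 at 36 h, 1.96 at 48 h, 2.63 at 60 h, 2.34 at 72 h and 3.15 at 96 h. Without the recurrent wells it was 3.20 at 0 h, 1.61 at 36 h and 3.26 at 96 h. Without Cenpf it was 3.47 at 0 h, 2.06 at 36 h, 3.20 at 60 h and 3.36 at 96 h, so that 60 h lay close to both. The S phase genes ranged from 1.33 at 0 h to 2.54 at 96 h and Gapdh from 1.15 to 1.55, so at 0 h the members alone of these stood above 2. The sums had unequal means, at 0 h 12.1 UMIs per cell for the members, 7.46 for the S phase genes and 3.29 for Gapdh. A Fano factor above 1 can rise with the mean, so these are not like baselines. At 0 h the share of a cell went from 0.131% to 1.73%, with a median of 0.538% and a 90th percentile of 1.02%. At 6 h the 10th percentile, 0.543%, was already at the 0 h median.

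**Figure D4:**
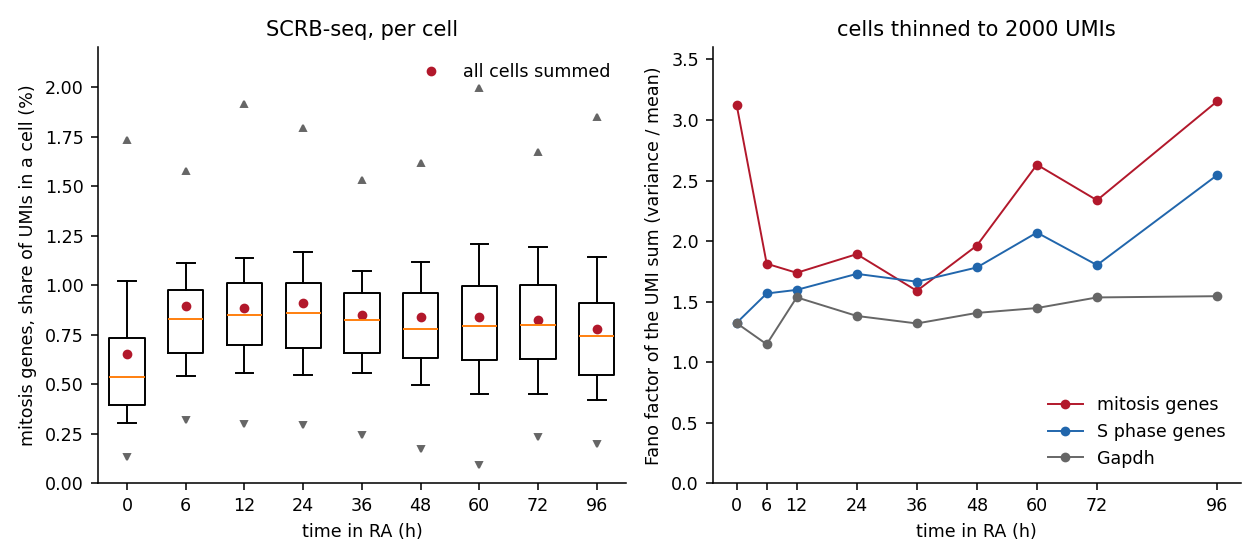
Left, share of UMIs of the mitosis genes in each SCRB-seq cell (%) by time in RA: boxes are quartiles with the median, whiskers the 10th and 90th percentiles, triangles the extremes and red points all cells summed. Right, Fano factor of the UMI sum in cells thinned to 2000 UMIs. The mitosis genes are at 3.12 at 0 h, 1.59 at 36 h and 3.15 at 96 h. Gapdh, which has a lower mean and is not a like baseline, stays between 1.15 and 1.55.

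In SCRB-seq, members varied together between cells most at 0 h. The summed shares of the odd-numbered and the even-numbered members correlated over the 282 cells with r = 0.617 at 0 h (0.619 without the recurrent wells, 0.413 in thinned cells), and with r = 0.076 to 0.346 at the other times. Without Cenpf, r between the odd-numbered and the even-numbered members was 0.646 at 0 h. At the other times it was 0.193 (24 h) to 0.437 (60 h), with 0.409 at 6 h and at 36 h. It was above r with Cenpf at every time, and 0 h remained the highest. The low r after 0 h thus came in part from this 1 member. The cells of a plate share the culture, the plate and the cell total, and r is given as a description. At 0 h 46 of 48 members had r above 0 with the sum of the others, from 0.50 for Nusap1 to -0.05 for Tmpo. The sum had r = 0.525 with the other mitotic genes and r = -0.094 with the S phase genes.

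Cenpf, the member with the most UMIs in SCRB-seq (14.7% of the members' UMIs), ran against the rest. Its r with the other members was 0.10 at 0 h, -0.19 at 6 h, -0.20 at 12 h, -0.22 at 24 h, -0.32 at 36 h, -0.29 at 48 h, -0.21 at 60 h, -0.16 at 72 h and 0.03 at 96 h. Without the recurrent wells the values from 6 h to 72 h were -0.14 to -0.30. In SMART-seq2, whose reads cover whole transcripts, r of Cenpf was 0.35 at 0 h, 0.18 at 12 h, 0.46 at 24 h and 0.40 at 48 h. The source of the difference between the methods was not tested.

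In SMART-seq2 cells, too, the members varied together. The values were RPKM, scaled so that every cell had the same total (the median at 0 h) and used as log2(RPKM + 1), with 82, 86, 89 and 82 cells at 0, 12, 24 and 48 h. The member mean was 5.78 ± 0.81 (SD over cells) at 0 h, 6.24 ± 0.69 at 12 h, 6.24 ± 0.65 at 24 h and 5.54 ± 1.21 at 48 h. At 12 h 43 of 48 members were above their 0 h mean, and at 48 h 32 of 48 were below it. Anln was lower by the most at 48 h (log2 difference -1.32), then Ube2c (-1.11), and Tmpo was higher by the most (0.68), then Kif23 (0.56). The difference of 48 h to 0 h over all members, -0.25, was below the SD over cells at either time, and it was -0.33 with RPKM as deposited. The mean of odd-numbered members correlated with that of even-numbered ones with r = 0.877, 0.842, 0.817 and 0.904, and the member mean with the number of genes detected in a cell with r = 0.332 to 0.613.

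Each member was compared with the mean of the other 47 over the cells of a time point. The median r was 0.53 at 0 h, 0.42 at 12 h, 0.45 at 24 h and 0.55 at 48 h, and 46 of 48 members were above 0 at every time. The 5 highest, as means of the 4 time points, were Ube2c (0.78), Ccnb1 (0.76), Nusap1 (0.71), Cdk1 (0.69) and Tubb4b (0.65). The 5 lowest were Tmpo (0.16), Hjurp (0.19), Lbr (0.20), Psrc1 (0.22) and Anp32e (0.26). Hjurp, the chaperone that places the histone CENP-A, is used after mitosis, and Tmpo and Lbr are envelope proteins present through the cycle. Psrc1 and Anp32e, which differed between the sorted lineages, thus were among the members least coupled to the others, and Ckap2 was at 0.28.

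**Figure D5:**
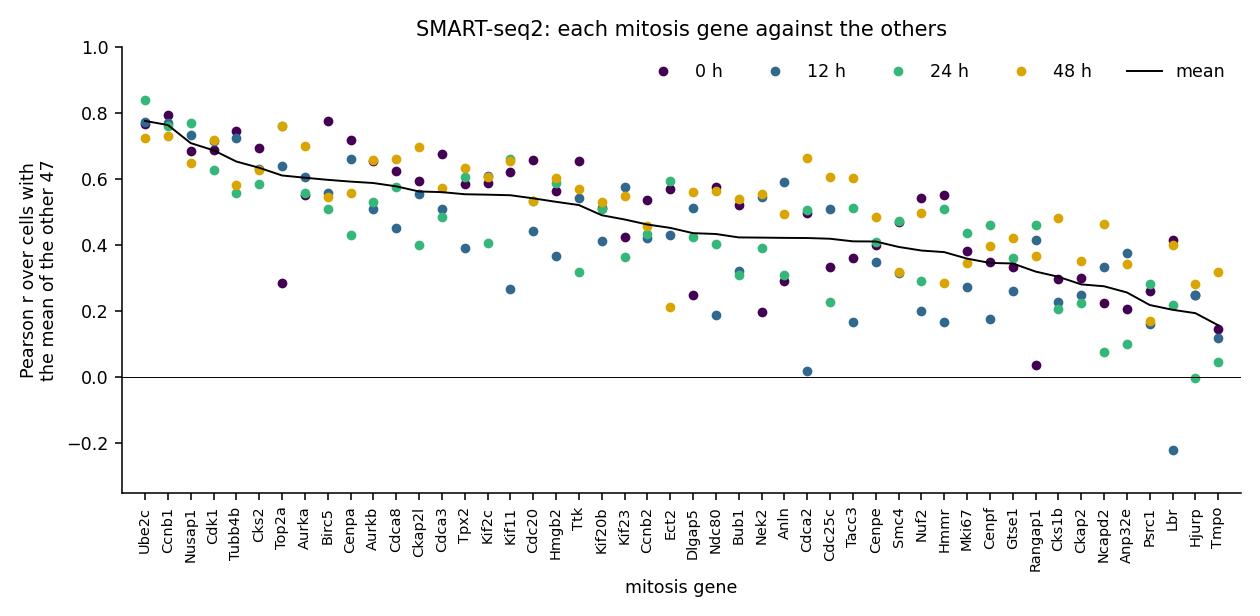
Pearson r over cells of each mitosis gene (x axis) with the mean of the other 47 in SMART-seq2 at 0, 12, 24 and 48 h (points) and the mean of the 4 (line), on log2(RPKM + 1). Ube2c and Ccnb1 are above 0.7 at every time, and Tmpo, Hjurp, Lbr and Psrc1 have means of 0.16 to 0.22.

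By role, entry genes (median r 0.68 at 0 h) and kinase and checkpoint genes (0.66) followed the rest more closely than chromosome structure genes (0.38) and envelope genes (0.15). At 48 h the roles lay closer, from 0.37 for envelope genes to 0.61 for entry genes. The r of the member mean with the S phase mean was 0.09 at 0 h, 0.27 at 12 h, -0.07 at 24 h and 0.42 at 48 h, and that with the other mitotic genes was 0.83 to 0.90.

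Ranking 12289 genes outside the list by the same measure, the 10 most alike over the 4 time points were Plk1 (0.74), Ccna2 (0.66), Ccnf (0.61), Kif20a (0.60), Kpna2 (0.60), Prc1 (0.57), Bub3 (0.55), Incenp (0.55), Racgap1 (0.54) and Kif22 (0.52). All 10 were on the list of other mitotic genes. That list had 36 of its 74 genes in the top 100 and the S phase list 0 of 46, and the median over all ranked genes was 0.08.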

How the data were processed

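Bulk RNA-seq, SCRB-seq and SMART-seq2 of RA-differentiated mESCs were analysed. In the bulk table and the SCRB-seq tables the values are counts of UMIs: reads had been aligned with bwa 0.7.4 to RefSeq mRNAs of mm10, a UMI seen again for the same gene in a library or well was not counted again, and the authors deposited the counts without normalization. For SMART-seq2 the authors deposited RPKM, computed after Tophat alignment by Cuffquant and then Cuffnorm in the cells that had enough reads, so the read depth is unknown. The members, the gene lists and the roles were chosen with earlier results of these data known.

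Damaged entries of 2 genes and 4 entries with repeated names were left out of the bulk table, and 4 with repeated names out of the SMART-seq2 table. Sorted libraries and mESCs (2 each) were compared by edgeR 4.0.16 (R 4.3.3) with TMM, its default filter and a quasi-likelihood fit of all 6 libraries, with Benjamini-Hochberg adjustment over 8945 genes (adjusted p under 0.05) and no replicate block. The script was tested on simulated data first. Conditions of 1 library were compared by shares of UMIs and by ratios with exact 95% counting intervals, calling 2-fold differences of genes with at least 40 UMIs in the pair after adding 0.5 UMI. Of the SCRB-seq wells, those above 2000 UMIs were used, and doublets were not removed. The variable genes (829, the 5% most variable over a moving window of 100 genes) held no member. Cells of 96 h were clustered by k-means with a Pearson correlation distance. Decimal-comma values in SMART-seq2 (0.127% to 0.14%) were read as 0, and RPKM were scaled so that every cell had the same total (the median at 0 h). The named members are those past a threshold in each comparison, the 10 with the most UMIs and the 3 with the largest rise or fall in the time course, and the 5 with the highest and lowest r in SMART-seq2. Tools were numpy 2.4.6, scipy 1.17.1, pandas 2.3.3 and DESeq2 1.42.0 as an alternative. Alternatives covered scaling, filters, left-out libraries, the replicate block, denominators, well thresholds, recurrent wells, clustering and pseudocounts.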

Additional observations from a re-analysis of the deposited data

Results flagged for a closer look

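For 3 members the change from mESCs differed between the 2 sorted lineages by the test of the difference itself (edgeR, XEN minus ectoderm-like, n = 2 and 2). The log2 difference was -1.86 for Ckap2 (adjusted p = 0.00804), -1.45 for Psrc1 (adjusted p = 0.0169) and -0.86 for Anp32e (adjusted p = 0.0399), each lower in both XEN libraries than in both ectoderm-like libraries. Ckap2 was at 51.6 and 30.04 CPM in mESCs, 76.7 and 60.1 in ectoderm-like cells and 16.3 and 19.1 in XEN cells. As the test that chose the 3 used these same libraries, the lack of overlap adds no support.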

How the results depend on the processing

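The counts of members past the threshold between sorted cells and mESCs moved with the processing. For ectoderm-like cells against mESCs the count was 1, and it was 2 with library totals only, 0 with only the 4 libraries compared and 0 to 2 with 1 library left out. For XEN cells against mESCs it was 6, and it was 3 with library totals only, 2 with only the 4 libraries, 2 with DESeq2 and 1 to 2 with 1 library left out. For XEN against ectoderm-like cells it was 3, and 0 to 1 with 1 library left out. With the replicate block (number 1 or 2) over the 4 sorted libraries it was 12 (4 higher and 8 lower), where 31.9% of all genes passed. The deviations of libraries with the same number correlated with r = 0.323 over all genes and 0.739 over the 48 members, and no label ties a number to a shared culture or day.

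The bulk ratio of 96 h to 0 h, 0.943, turned to 1.11 as the median over members, to 1.02 without Hmgb2 and to 1.15 without the first mESC library, and was 0.876 without the 50 most abundant genes and 0.922 with members of at least 20 UMIs in every library. The ratio between the cultures, 3.14, was 3.50 as the median and 3.40 without the 50 most abundant genes. As the median over members, Q4 over Q1 was 0.950 and PDGFRA+ over T3 0.902, and without Hmgb2 they were 0.934 and 0.944. In SCRB-seq, 96 h over 0 h was 1.25 as the mean over cells, the ratio between the clusters turned to 1.01 with a split by markers, the Fano factor at 0 h was 4.86 in cells thinned to 3000 UMIs, and the correlation between odd-numbered and even-numbered members at 0 h was 0.715 in wells above 4000 UMIs and 0.413 in cells thinned to 2000. Leaving out the recurrent wells, an alternative chosen after seeing the data, kept the direction of the 4 SCRB-seq results it was run on, and with these wells the counts past 2-fold moved by at most 2 members. The causes were not tested.

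Groups of 2 libraries limit the tests between sorted cells, and comparisons of 1 library have no replicate check. Members with few UMIs in a pair, such as Ttk, Psrc1 and Hjurp in the cultures, have wide counting intervals. Each SCRB-seq time point is 1 plate, and SMART-seq2 values carry no read depth.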

Other observations

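SMART-seq2 cells of 48 h were set side by side by the sorting markers. The 10 cells with the highest Pdgfra had a member mean of 5.36 ± 1.30 (SD, log2(RPKM + 1)), the 29 cells with the highest Cd24a 5.48 ± 1.23, and the other 43 cells 5.62 ± 1.20. The lowest and highest cells were 2.88 and 7.05, 3.13 and 6.96, and 1.30 and 7.02. SCRB-seq cells were also assigned to the profile they correlated with best (0 h, cluster 1 or cluster 2 of 96 h), without the cell cycle lists. At 60 h the 98 cells closest to the 0 h profile held 0.803% of UMIs in the members, the 165 closest to cluster 2 held 0.868% and the 10 closest to cluster 1 held 0.667%. At 72 h 24 cells closest to the 0 h profile held 0.745%, 186 closest to cluster 2 held 0.840% and 25 closest to cluster 1 held 0.696%.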
